A study of Mus musculus with 15 samples.

Results

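Bulk RNA-seq of the forebrain was compared between 5xFAD mice whose microglia had lost Atg7 and 5xFAD mice that kept it, and is described here gene by gene with emphasis on cells other than microglia. The members were the 13 bulk libraries of a series of 15 samples, and all 16956 of 54532 genes in their count table that passed a low-count filter. The 6 control libraries came from mice of genotype ATG7FF;5xFAD, with floxed Atg7 alleles and no Cre. The 7 cKO libraries came from Cx3cr1CreER;ATG7FF;5xFAD mice, in which tamoxifen-inducible Cre is expressed from the Cx3cr1 locus. The strain was C57BL/6 throughout, the tamoxifen dose was 1.5 mg at an age of 2 months, and brains were taken when the mice were 8 months old. Both groups therefore carried the 5xFAD transgenes and both received tamoxifen, and no group without amyloid entered this comparison. The 5xFAD transgenes are mutant human genes that drive amyloid deposition, APP among them, driven in neurons by the Thy1 promoter. Cx3cr1 is active in microglia but also in macrophages at the borders of the brain and in some blood myeloid cells, so the deletion may not be limited to microglia, and the Cre allele itself was present only in cKO mice. RNA came from forebrain hemispheres with the cerebellum removed. Whether each library stands for its own animal is not in the labels, and the p-values therefore rest on the spread among libraries, which may be technical in part. The other 2 samples of the series, sorted microglia of mice without 5xFAD, served here only to sort genes by their source.

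Microglia are the resident macrophages of the brain. Around amyloid plaques they lower homeostatic genes such as Cx3cr1 and raise a disease-associated set that includes Itgax, Cst7 and Clec7a, and neighbouring astrocytes, oligodendrocytes and neurites change their expression as well. Atg7 encodes the E1-like enzyme that drives the lipid conjugation of LC3 and the joining of ATG12 to ATG5, steps needed to form autophagosomes. A forebrain homogenate averages all these cells, and in such a sample fewer cells of a type and less RNA per cell cannot be told apart.

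Atg7 itself, read first because it was the targeted gene, ranged from 21.2 to 27.4 CPM (counts scaled to a common library size) in control libraries (median 24.1) and from 22.8 to 25.8 in cKO libraries (median 24.9). The groups overlapped completely, with a log2 change, given throughout as cKO minus control, of 0.01 (SE 0.07). Bulk Atg7 reads thus did not check the labels, since the whole table counts the gene in every cell and not its floxed part. The transcript of the Cre-carrying locus did separate the groups. Cx3cr1 ran from 59.9 to 68.3 CPM in controls and from 20.8 to 28.0 in cKO, without overlap.

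Total counts ran from 16658707 to 22355512 per library. Control 5 and cKO 5 stood at opposite ends of the first principal component, which held 18.2% of the variance. Tissue at the edge of the dissection differed between libraries. Gh, growth hormone of the pituitary, was at 191 CPM in control 3 and 479 CPM in control 4 but at no more than 8.40 CPM in any cKO library. Gabra6, a receptor subunit of cerebellar granule cells, exceeded 1 CPM in control 5, control 6, cKO 6 and cKO 7. Tph2, the serotonin synthesis enzyme of raphe neurons, was under 10 CPM in control 1, control 2 and cKO 1. Xist was at most 0.11 CPM and the Y-linked Ddx3y at least 56.9 CPM in each of the 13 libraries, so the groups did not differ in these indicators of sex.

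**Figure D1:**
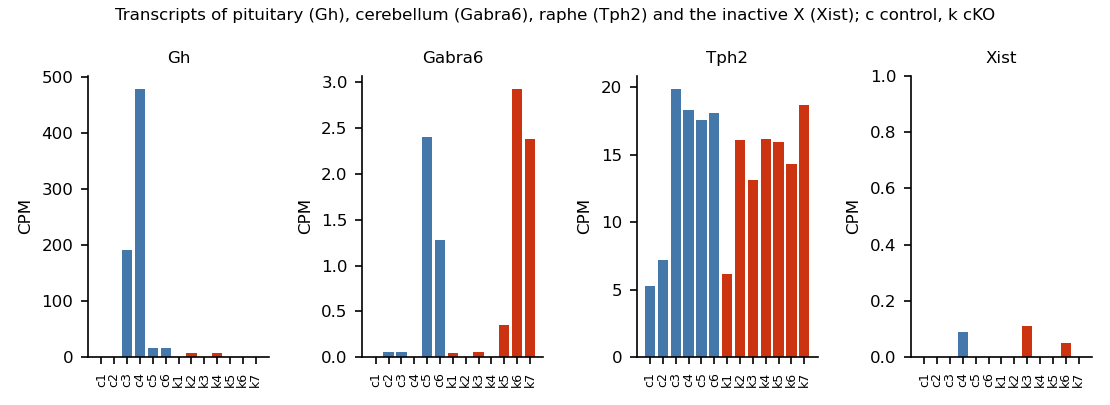
CPM of Gh (pituitary), Gabra6 (cerebellar granule cells), Tph2 (raphe serotonin neurons) and Xist (inactive X chromosome) in each library, with 1 bar per library (c, control; k, cKO) and linear axes from 0. Gh is high in c3 and c4 (191 and 479 CPM), Gabra6 exceeds 1 CPM in c5, c6, k6 and k7, Tph2 is low in c1, c2 and k1, and Xist stays at or below 0.11 CPM.

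Of the 16956 genes, 47 fell (0.277%) and 9 rose (0.0531%) in cKO forebrain by edgeR's quasi-likelihood test at a Benjamini-Hochberg adjusted p of 0.05, 0.33% in either direction. The fallen genes had a median log2 change of -0.64, and 40 of them had every cKO library below every control, as did 53 of all genes tested (0.313%). The risen genes had a median log2 change of 0.36, and 7 of the 9 had every cKO library above every control, as did 22 of all genes tested (0.13%). At an unadjusted p of 0.05, 711 genes were lower (4.19%) and 597 were higher (3.52%). The counts moved when libraries were left out. Without cKO 3, cKO 6 or control 5, 31, 31 and 30 genes fell. Without cKO 1, 23 rose, without cKO 2 or control 2, 4, without cKO 6, control 5 or control 6, 5, and without cKO 7, control 3 or control 4, 3. Without both controls with high Gh 24 fell and 1 rose, and without the 4 libraries with Gabra6 over 1 CPM 17 fell and 0 rose. The percentages above are the background against which the counts of each cell type list below were set, and the median log2 change of all genes tested was 0.00. With 0.33% of all genes called, a count of 0 in a short list is near that background.

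To place each gene, its CPM in the sorted control microglia was divided by its mean CPM in control forebrain. Genes at 4 times or more were called microglia-rich, genes at 0.25 times or less microglia-poor, and the rest between. Of 47 fallen genes, 42 were microglia-rich, 3 were between, 1 was microglia-poor and 1, Clec7a, had no row in the single-cell tables. Of 9 risen genes, 1 was microglia-rich, 4 were between and 4 were microglia-poor. The class of 2 risen genes is unsettled, since the sorted control library held 0 UMIs (counted molecules) of Mmp12 and 8 of Lilr4b. With the sorted cKO library as the reference, Mmp12 was between and Lilr4b was microglia-rich. The share of genes that fell was 0.0154% of 6487 microglia-poor genes, 0.0504% of 3971 genes between 0.25 and 1 times and 0.0271% of 3690 between 1 and 4 times. From there it climbed with the ratio, to 0.20% of 998 genes between 4 and 10 times, 2.72% of 478 between 10 and 30 times, 7.32% of 205 between 30 and 100 times and 15.8% of 76 at 100 times or more. The median log2 change was 0.00 among microglia-poor genes and, over the 4 upper steps, 0.01, -0.03, -0.12 and -0.20.

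Not every microglia-rich transcript was called. Of 281 genes at 30 times or more, 27 fell. The 95% interval of the log2 change lay wholly below 0 for 78 of the 281 and wholly above 0 for 2. It lay between -0.5 and 0.5 for 82, a range that also holds small falls. Cst3, the protease inhibitor cystatin C, ranged from 860.3 to 971 CPM in controls and from 706 to 967 in cKO, with 5 of 7 cKO libraries below all controls and a log2 change of -0.20 (SE 0.06, adjusted p = 0.318 by edgeR). Without cKO 5 the change was -0.25 (adjusted p = 0.00709 by edgeR), with GC and length offsets -0.27 (0.00192) and by limma voom -0.24 (0.0209), so this gene passed the threshold in those fits. Among microglia-poor genes 4866 of 6487 (75.01%) had an interval between -0.5 and 0.5, against 76.8% of all genes tested. Of the 4428 at a mean of 5 CPM or more, 4315 (97.4%) did. The sorted libraries held some RNA of other cells, since Ttr, the thyroid hormone carrier made by the choroid plexus, was at 479 CPM there, and they came from mice without plaques. The class of a gene is therefore a ratio and not an assignment to a cell type.

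**Figure D2:**
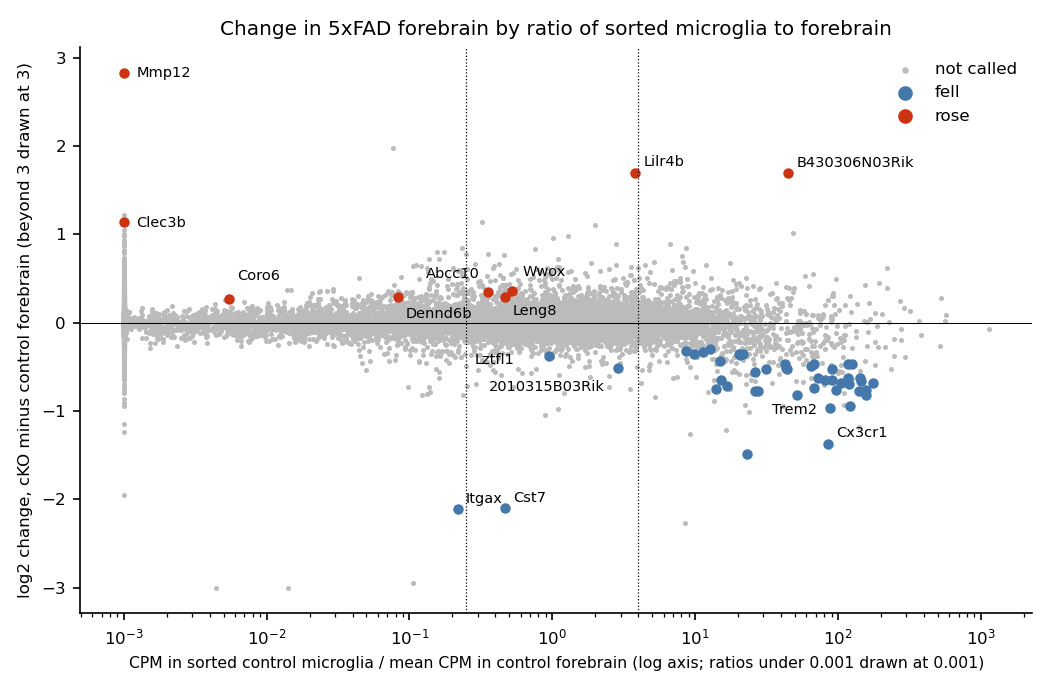
Log2 change in cKO against control 5xFAD forebrain for each gene with a single-cell row, against the ratio of its CPM in sorted control microglia to its mean CPM in control forebrain (log axis). Blue points fell, red points rose, grey points were not called, and dotted lines mark ratios of 0.25 and 4. Of 47 fallen genes 42 lie right of the line at 4, whereas 8 of 9 risen genes lie left of it. Among these, the places of Mmp12 and Lilr4b rest on 0 and 8 UMIs in the sorted control library.

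Promoter sequences were read for the called genes because most of the fallen ones moved together. RefSeq windows of GRCm38.p6, from 250 bases before to 50 after the gene start, were matched by symbol for 37 fallen and 7 risen genes. Letters of 3 motifs were searched on both strands. The core bound by PU.1, the master transcription factor of microglia and macrophages (GAGGAAGT), was in 6 of 37 fallen (16.2%), 3 of 7 risen (42.9%), 2.7% of the 12165 windows of genes tested and 3.28% of all 27025 windows. The AP-1 letters (TGANTCA) were in 5 fallen (13.5%), 1 risen (14.3%), 4.91% of windows of genes tested and 7.93% of all windows. The palindrome bound by TFEB, a driver of lysosomal and autophagy genes (TCACGTGA), was in 3 fallen (8.11%), 0 risen, 1.73% of windows of genes tested and 1.01% of all windows. A match is a description of the letters and not evidence of binding. The 3 risen genes with a PU.1 core were Mmp12, Abcc10 and B430306N03Rik. Mmp12 and B430306N03Rik passed the low-count filter only through the cKO libraries, where they are high. Of 47 fallen genes 42 were microglia-rich, whereas the windows of genes tested came from all classes. These shares therefore describe the sets and do not test a role of the motifs. Stretches upstream of the gene start are shown for 1 fallen and 2 risen genes with a PU.1 core, for Itgax as the fallen gene with the lowest log2 change, and for the lysosomal gene Ctsd. Each is written 5′ to 3′ on the gene's strand with the motif in capitals.
C1qc, chr4:136893076-136893135, minus strand, PU.1: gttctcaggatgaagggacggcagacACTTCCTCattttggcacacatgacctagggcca
Mmp12, chr9:7344283-7344342, plus strand, PU.1: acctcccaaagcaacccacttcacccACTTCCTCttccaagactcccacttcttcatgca
B430306N03Rik, chr17:48316064-48316123, plus strand, PU.1: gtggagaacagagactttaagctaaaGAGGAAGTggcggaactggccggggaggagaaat
Itgax, chr7:128129468-128129527, plus strand, AP-1: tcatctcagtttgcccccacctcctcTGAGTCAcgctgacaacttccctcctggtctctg
Ctsd, chr7:142387893-142387952, minus strand, TFEB: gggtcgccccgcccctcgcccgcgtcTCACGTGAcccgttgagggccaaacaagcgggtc
C1qc encodes a chain of complement C1q and Ctsd the lysosomal protease cathepsin D. Mmp12 and B430306N03Rik, described with the risen genes, hold the same PU.1 letters as C1qc and changed in the opposite direction.

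The fallen genes that were not microglia-rich were Itgax, Cst7, Lztfl1 and 2010315B03Rik. Itgax, the integrin chain CD11c, was at 5.89 to 12.4 CPM in controls and 1.54 to 2.34 in cKO, and Cst7, the protease inhibitor cystatin F, at 10.4 to 22.3 and 2.31 to 4.62. Neither gene had overlapping groups, and their log2 changes were -2.11 (SE 0.16) and -2.10 (SE 0.18). Both were scarce in sorted microglia of plaque-free control mice. Itgax was at 1.75 CPM there (exact Poisson 95% interval 1.00 to 2.85, counting error only) and at 4.22 CPM (3.61 to 4.91) in the sorted cKO library. Cst7 was at 6.80 CPM (5.21 to 8.71) and 21.6 CPM (20.2 to 23.1). The 2 fallen genes with the lowest log2 changes in plaque-bearing forebrain were thus higher in the cKO library where plaques were absent, though each sorted genotype was 1 library and that contrast has no replicate check.

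Lztfl1, a regulator of protein traffic in cilia, and 2010315B03Rik, a gene without an established role, fell by less. Lztfl1 ranged from 44.0 to 53.3 CPM in controls and from 28.9 to 43.0 in cKO, and 2010315B03Rik from 11.9 to 14.8 and from 7.87 to 10.2. Neither had overlapping groups, and the log2 changes were -0.37 (SE 0.08, adjusted p = 0.0281 by edgeR) and -0.51 (SE 0.09, adjusted p = 0.00414). Both lie on chromosome 9 within 10 Mb of Cx3cr1. Of 155 other tested genes in that window, 4 were called (2.58%), against 0.33% of all genes. Among them Lztfl1 (9:123694416-123717697) and 2010315B03Rik (9:124291804-124312696) fell and Clec3b (9:123150946-123157432) rose, all in GENCODE M21 coordinates on GRCm38. These 3 lay 3.08 to 4.22 Mb from Cx3cr1, on the same side. Elsewhere on chromosome 9, 1 of 811 genes was called, Mmp12. Only cKO libraries carried the Cx3cr1CreER allele, so for these neighbours an effect of the deletion and an effect of the allele or of sequence linked to it cannot be told apart.

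Of the 9 risen genes, 8 had a higher CPM in the sorted cKO than in the sorted control microglia, in 1 library each. In 5 the CPM was 1.5-fold or more above, among them Clec3b and Mmp12 with 0 UMIs in the control library. Of 46 fallen genes with a single-cell row, 15 were also higher in the sorted cKO library. That library held 40031404 UMIs and the control 9122532. The share over all genes tested is not given here, so these counts are no separate check of the rises. Clec3b, which encodes the plasminogen-binding protein tetranectin and is expressed by fibroblasts, was at 1.15 CPM at the lowest, 1.71 at the median and 2.98 at the highest in controls. In cKO it was at 3.32, 3.68 and 6.20 CPM, without overlap, for a log2 change of 1.13 (SE 0.19, adjusted p = 0.00543 by edgeR). Sorted control microglia held 0 Clec3b UMIs, which allows up to 0.329 CPM at 3 counts, and sorted cKO microglia held 2.

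Mmp12, the macrophage elastase that degrades elastin and is made by activated macrophages, was at 0 to 0.498 CPM in controls (median 0.114) and 0.669 to 2.43 CPM in cKO (median 1.48). The groups did not overlap, and the log2 change was 2.83 (SE 0.48, adjusted p = 0.00583 by edgeR), from 0 to 11 reads in control and 12 to 46 reads in cKO libraries. In the sorted microglia it had 0 UMIs in the control and 26 UMIs (0.649 CPM, exact Poisson 95% interval 0.424 to 0.952) in the cKO library. Lilr4b, an inhibitory receptor of myeloid cells that shares sequence with Lilrb4a so that its reads could be split between copies, was at 0.160 to 0.362 CPM in controls and 0.446 to 1.18 in cKO. It rose by a log2 change of 1.70 (SE 0.33, adjusted p = 0.0174 by edgeR), from 3 to 8 reads in control and 8 to 22 in cKO libraries. Mmp12, Lilr4b and B430306N03Rik passed the low-count filter only through the cKO libraries, where they are high, and these 3 of the 9 calls are no independent count of rises.

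B430306N03Rik was the microglia-rich gene among the risen. It lies 19.4 kb from Trem2 on chromosome 17, and the neighbours moved in opposite directions. B430306N03Rik was at 0.107 to 0.485 CPM in controls and 0.449 to 1.37 in cKO, where 6 of 7 libraries were above all controls, for a log2 change of 1.70 (SE 0.37, adjusted p = 0.0496 by edgeR). Trem2, the lipid-sensing receptor needed for the plaque response, was at 25.2 to 36.6 CPM and 12.7 to 16.7 CPM, for a log2 change of -0.96 (SE 0.09). In the sorted libraries B430306N03Rik was at 12.1 CPM in control and 37.7 CPM in cKO, 3.13 times as much.

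The other 5 risen genes had small changes and higher counts. Dennd6b, a regulator of Rab GTPases, was at 49.4 to 57.9 CPM in controls and 60.7 to 72.0 in cKO, with a log2 change of 0.29 (SE 0.05, adjusted p = 0.015 by edgeR). Wwox, an oxidoreductase spanning a fragile site, was at 21.8 to 28.4 and 28.5 to 35.0 CPM (0.36, SE 0.07). Abcc10, a multidrug efflux pump, was at 9.33 to 11.2 and 12.5 to 14.3 CPM (0.34, SE 0.08). Leng8, a nuclear RNA-binding protein gene, was at 159.8 to 167 and 171 to 232 CPM (0.29, SE 0.06). These 4 had no overlap between groups. Coro6, a coronin that binds actin, was at 37.9 to 43.3 and 42.6 to 54.4 CPM (0.27, SE 0.06), and 1 cKO library lay within the control range. The median GC content was 56.0% for the risen genes and 49.6% for all genes tested. With GC and length offsets the calls of Coro6 (adjusted p = 0.245 by edgeR) and Abcc10 (0.0866) were lost. Those of Dennd6b (0.00957), Wwox (0.0140) and Leng8 (0.0405) were kept.

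Dependence on single libraries separated the risen genes. Clec3b, Mmp12 and Dennd6b kept an adjusted p under 0.05 in edgeR with any 1 of the 13 libraries left out. The call of Wwox was lost without cKO 1, cKO 2, cKO 3, cKO 7, control 3, control 4, control 5 or control 6, each alone (adjusted p 0.0523 to 0.0967). That of Leng8 was lost without cKO 6, cKO 7 or any 1 control (0.0527 to 0.0769), and that of Lilr4b without control 2, control 3 or control 4 (0.0510 to 0.0619). Coro6 was lost without any 1 control or without cKO 2, 3, 4, 6 or 7 (0.0606 to 0.146), and Abcc10 without any library except cKO 1 (0.0629 to 0.137). B430306N03Rik was lost without any of controls 1 to 5 (0.0689 to 0.157). B430306N03Rik and Lilr4b each failed the low-count filter in 6 of the 13 reduced tables. Lztfl1 was lost without cKO 2, 3, 4 or 6 or control 2, 3, 5 or 6 (0.0564 to 0.103), whereas Itgax, Cst7, Trem2, Cx3cr1 and 2010315B03Rik were called in each. In all, 28 of 47 fallen and 3 of 9 risen genes were called in each of the 13 reduced fits. None of the 56 called genes changed sign in any of these fits.

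**Figure D3:**
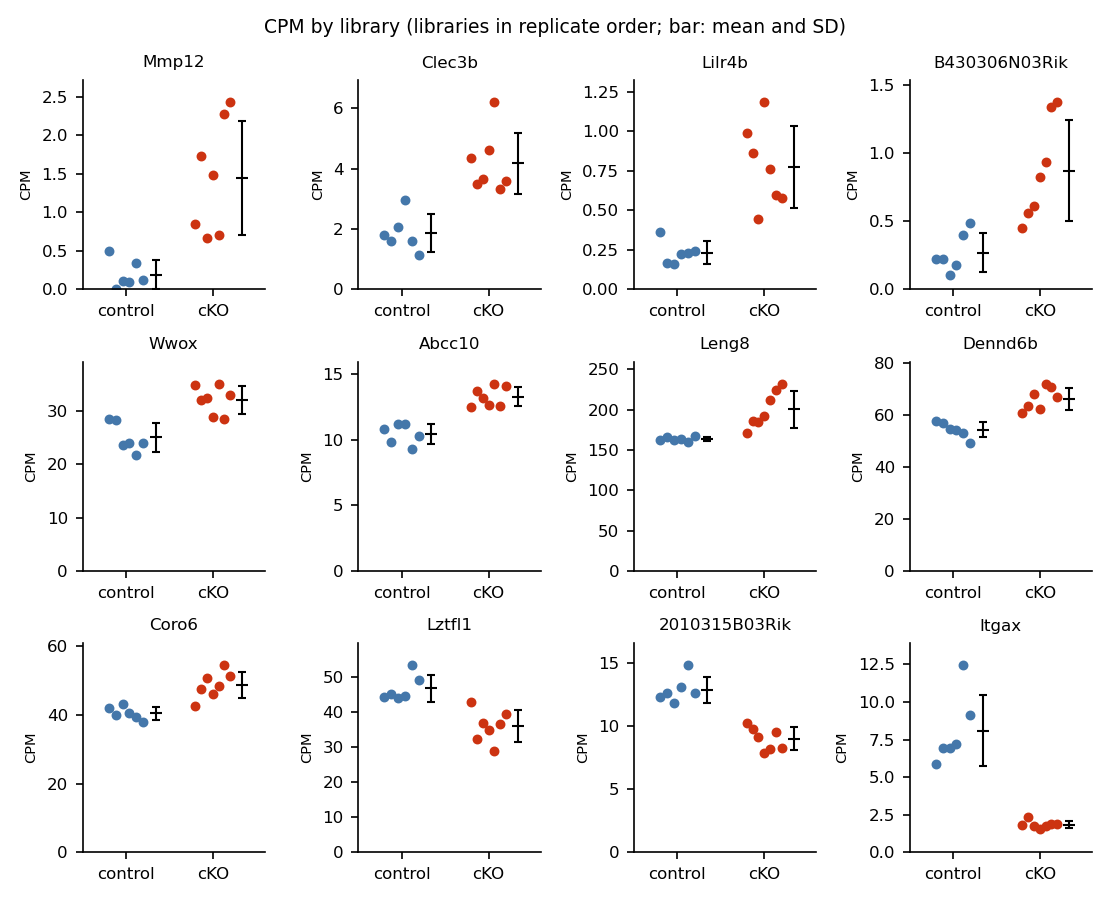
CPM of 12 called genes in each library on linear axes from 0 (blue, 6 control; red, 7 cKO; bars, mean and SD). Groups overlap for Coro6 and B430306N03Rik, with 1 cKO library each inside the control range, and not for the others.

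Genes of neurons, glia other than microglia, vessels and ventricular barriers were then pooled. Their lists held 260 different genes, of which 255 were tested. By edgeR 0 of the 255 fell and 1 rose, Clec3b, against 0.277% and 0.0531% of all genes tested. At an unadjusted p of 0.05, 22 of the 255 were lower, a larger share than the 4.19% of all genes tested. In the other direction 3 of the 255 were higher, a smaller share than the 3.52% of all genes tested. DESeq2 called Clec3b alone, and limma voom called Clec3b and 1 gene that was lower. The median log2 change of the 255 genes was -0.00 and 221 (86.7%) had a 95% interval between -0.5 and 0.5. For comparison, 28 of 83 tested genes in the microglial lists fell and 0 rose, with a median of -0.33.

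Astrocytes, which carry out glutamate uptake and become reactive around plaques, showed 0 called genes among 20 tested steady-state markers (1 lower and 0 higher at an unadjusted p of 0.05) and among 22 tested reactive markers (1 lower and 0 higher). DESeq2 and limma voom also called 0. The median log2 changes were -0.01 and -0.04, and the second turned to 0.01 without control 5 and cKO 5. Gfap, the intermediate filament that marks reactive astrocytes, ranged from 404 to 531 CPM in controls (median 478) and from 388 to 482 in cKO (median 457). The groups overlapped, and the log2 change of -0.07 had a 95% interval of -0.20 to 0.06. Serpina3n, an inhibitor of serine proteases induced in amyloid models, was at 32.5 to 40.9 and 29.1 to 39.1 CPM, with an interval of -0.29 to 0.02. C4b, the complement component that reactive astrocytes and oligodendrocytes make, was at 78.0 to 106 and 80.2 to 99.9 CPM, with an interval of -0.14 to 0.15, and its reads could be split with the near-identical C4a. Slc1a2, the main glutamate transporter of astrocytes, was at 2529 to 2721 and 1952 to 2614 CPM (log2 change -0.13, SE 0.05, adjusted p = 0.525 by edgeR), and 6 of 7 cKO libraries were below all controls. Its log2 change was -0.09 without cKO 5 and -0.06 with GC and length offsets. Glul, which converts glutamate to glutamine, was at 1347 to 1549 and 1061 to 1630.3 CPM, and its interval was -0.17 to 0.14.

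Myelin and precursor genes of the oligodendrocyte lineage, whose mature cells make myelin, had lower medians than either astrocyte list. Of 20 tested myelin genes 16 were lower in cKO, against 49.4% of all genes tested, and the median log2 change was -0.09. By edgeR 0 were called, DESeq2 called 0 and limma voom called 1. At an unadjusted p of 0.05, 6 were lower (30%, against 4.19% of all genes tested) and 0 higher. Mobp, a structural protein of compact myelin, ranged from 614 to 686 CPM in controls (median 638) and from 527 to 648 in cKO (median 572). Of the 7 cKO libraries 6 lay below all controls, with a log2 change of -0.17 (SE 0.04, adjusted p = 0.201 by edgeR). Mobp starts 79.8 kb from Cx3cr1, inside the chromosome 9 window above. Mbp, myelin basic protein, was at 1712 to 2108 and 1613 to 2239 CPM, with an interval of -0.24 to 0.05. The mean log2 level of the 20 genes was 6.88 to 6.95 in controls and 6.72 to 6.90 in cKO, where cKO 1 and cKO 4 lay inside the control range and the other 5 libraries below it. Without control 5 and cKO 5 the median was -0.09, and with GC and length offsets -0.09.

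Among 12 tested genes of oligodendrocyte precursors 9 were lower, with a median log2 change of -0.11, 2 lower at an unadjusted p of 0.05 and 0 called by edgeR, DESeq2 or limma voom. Ptprz1, a receptor phosphatase of precursors and astrocytes, was at 239 to 267 CPM in controls and 179 to 259.8 in cKO (log2 change -0.18, SE 0.06, adjusted p = 0.464 by edgeR), with 6 of 7 cKO libraries below all controls. Its log2 change was -0.13 without cKO 5 and -0.09 with GC and length offsets. Pdgfra, the growth factor receptor that defines the precursors, was at 57.0 to 64.0 and 51.9 to 74.2 CPM (-0.06, SE 0.06). Without control 5 and cKO 5 the precursor median moved to -0.06. The disease-associated oligodendrocyte list had a median of -0.01 over 12 genes with 0 called by edgeR, DESeq2 or limma voom and 0 at an unadjusted p of 0.05.

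**Figure D4:**
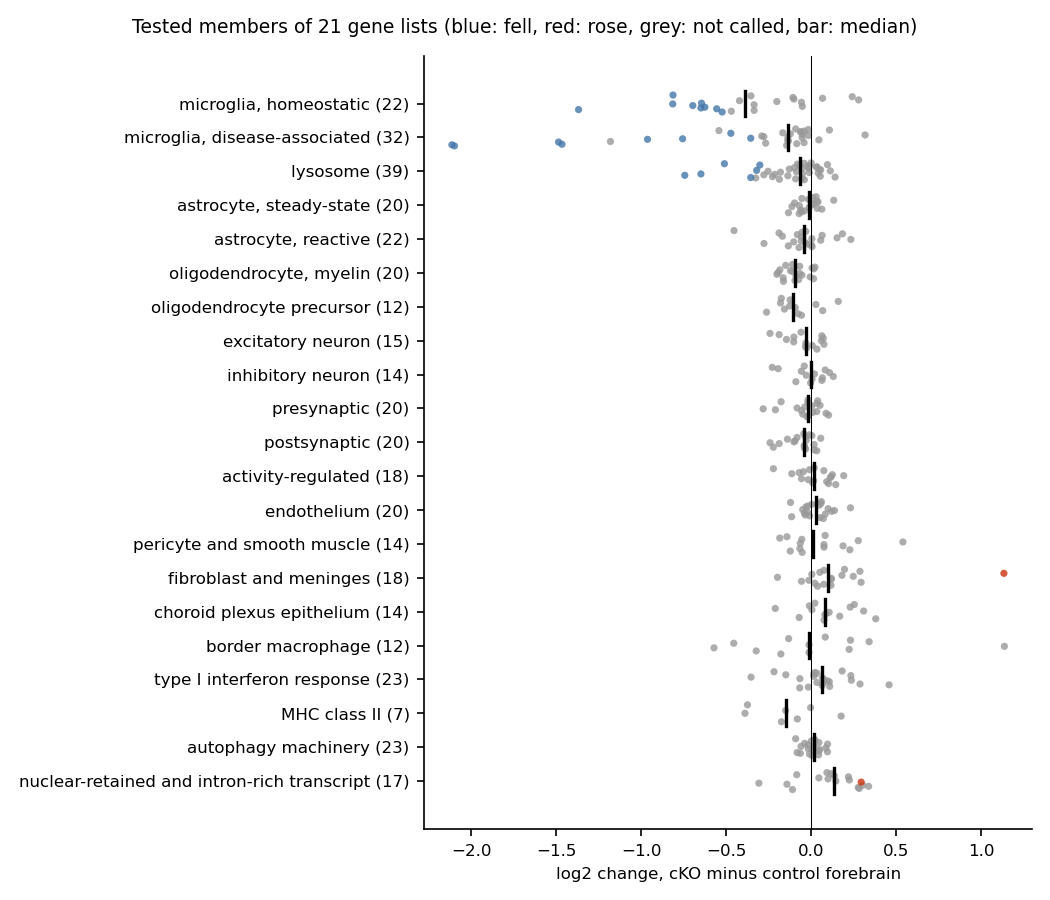
Log2 change of each tested member of 21 gene lists in cKO against control 5xFAD forebrain, with the number tested in brackets (blue, fell; red, rose; grey, not called; black bar, median). Fallen members stand in the microglial and lysosome lists, and the medians of the astrocyte, neuron, endothelium and pericyte lists shown lie between -0.04 and 0.03.

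Of 97 different neuronal genes 0 were called by edgeR, DESeq2 or limma voom, a count near the 0.33% of all genes called by edgeR. At an unadjusted p of 0.05, 9 of the 97 were lower, a larger share than the 4.19% of all genes tested, and 0 were higher, against 3.52%. The median log2 change was -0.00. By list it was -0.03 for excitatory, 0.00 for inhibitory, -0.02 for presynaptic, -0.04 for postsynaptic, 0.02 for activity-regulated and 0.06 for neuropeptide genes, where it turned to -0.03 without control 5 and cKO 5. Camk2a, the kinase of excitatory synapses, was at 2209 to 2396 CPM in controls and 2039 to 2401 in cKO, with a 95% interval of -0.12 to 0.05. Slc17a7, the vesicular glutamate transporter of cortex, was at 948 to 1095 and 987 to 1191 CPM, with an interval of -0.06 to 0.13. Gad1, which makes GABA, was at 597 to 621 and 569 to 674 CPM (-0.09 to 0.08), and Snap25, a fusion protein of synaptic vesicles, at 2298 to 2589 and 2191 to 2486 CPM (-0.13 to 0.03). The groups overlapped in each of these 4 genes.

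The values of 2 synaptic genes follow with and without cKO 5. Pclo, a scaffold of the presynaptic active zone, was at 197 to 231 CPM in controls and 104 to 222 in cKO (log2 change -0.28, SE 0.13, adjusted p = 0.645 by edgeR). Grin2b, an NMDA receptor subunit, was at 429.9 to 545 and 274 to 485 CPM (-0.24, SE 0.11, adjusted p = 0.637). Both genes were chosen after their values were seen. Without cKO 5, the library at the end of the first principal component, the log2 changes were -0.19 and -0.17, and with GC and length offsets -0.18 and -0.13. The mean log2 level of the 20 postsynaptic genes was 7.96 in cKO 5 and between 8.07 and 8.17 in the other cKO libraries, against 8.11 to 8.20 in controls.

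Immediate early genes, which report recent neuronal activity, varied more between libraries than between groups. Arc was at 266 to 349.6 CPM in controls and 184 to 417 in cKO, and Egr1 at 342 to 441 and 256 to 541 CPM. The cKO range enclosed the control range in both, and the intervals of the log2 change were -0.26 to 0.49 and -0.33 to 0.36. Region markers gave medians of -0.01 for striatum, -0.03 for thalamus, -0.01 for hippocampus, 0.08 for hypothalamus and 0.10 for olfactory bulb, and 0 of 57 tested region genes were called by edgeR, DESeq2 or limma voom (4 lower and 4 higher at an unadjusted p of 0.05). Without control 5 and cKO 5 the hypothalamus median turned to -0.08. Pomc, a hormone precursor of the hypothalamus and pituitary, was at 1.18 to 74.8 CPM in controls and 1.06 to 7.58 in cKO. Its log2 change of -2.95 (SE 1.00, adjusted p = 0.521 by edgeR) came with 57.0 and 74.8 CPM in controls 3 and 4, the libraries with high Gh.

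Fibroblast and meningeal genes were the vessel-associated list with most members higher. Of 18 tested fibroblast and meningeal genes 15 were higher, against 50.6% of all genes tested, with a median log2 change of 0.10, and 1 rose, Clec3b, by edgeR, DESeq2 and limma voom. Col3a1, a fibrillar collagen chain, was at 3.12 to 5.48 CPM in controls and 4.68 to 6.83 in cKO (0.29, SE 0.13, adjusted p = 0.638), and Fbln1, a matrix glycoprotein, at 13.999 to 17.7 and 15.9 to 19.6 CPM (0.18, SE 0.07, adjusted p = 0.578). Neither passed the test, each had 4 of 7 cKO libraries above all controls, and both were chosen after their values were seen. The mean log2 level of the list was 3.78 to 3.94 in controls and 3.91 to 4.09 in cKO, overlapping in cKO 2. How much meninges each dissection kept was not tested.

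Endothelial genes had a median of 0.03 over 20 tested (0 called by edgeR, DESeq2 or limma voom, 1 lower and 0 higher at an unadjusted p of 0.05), and pericyte and smooth muscle genes 0.01 over 14 (0 called by the same tools, 2 lower and 0 higher). Flt1, a VEGF receptor of endothelium, was at 76.9 to 88.0 and 70.4 to 87.5 CPM (-0.12, SE 0.06, adjusted p = 0.645 by edgeR). Slc2a1, the glucose transporter of the blood-brain barrier, was at 88.1 to 129 and 90.6 to 118 CPM, with an interval of -0.17 to 0.13. Choroid plexus genes had a median of 0.08 over 14, with Ttr at 376 to 492 and 354 to 546 CPM, and ependymal genes 0.04 over 11. In both lists 0 genes were called by edgeR, DESeq2 or limma voom and 0 had an unadjusted p under 0.05.

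**Figure D5:**
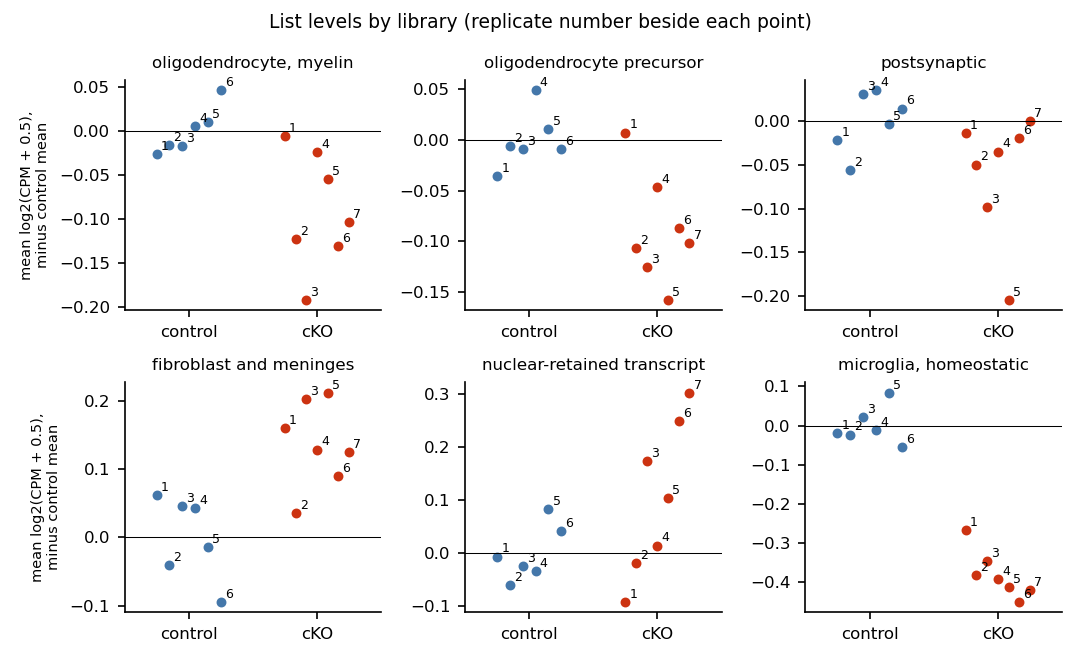
Mean log2(CPM + 0.5) over the tested members of 6 lists in each library, minus the mean of the 6 controls (blue, control; red, cKO; numbers, replicate). The homeostatic microglia list separates the groups, whereas the myelin, precursor, postsynaptic, fibroblast and nuclear-retained lists overlap, with cKO 5 lowest for the postsynaptic list.

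Cells from blood and brain borders contributed little RNA. Of 18 T and NK cell genes 4 were tested, of 12 B and plasma cell genes 5, and of 12 neutrophil genes 4, and Cd3e, a defining marker of T cells, was at most 0.557 CPM. The summed CPM of the T and NK list was 13.2 to 20.9 in controls and 14.4 to 20.4 in cKO. Ccr2, the receptor of inflammatory monocytes, was at 0.111 to 0.425 and 0.117 to 0.592 CPM and Ly6c2, another monocyte marker, at no more than 0.414 CPM. Their medians were 0.339 and 0.136 CPM in controls and 0.407 and 0.198 in cKO, levels below those of Mmp12 and Lilr4b in cKO, and a part of monocytes in those rises was not tested. The summed monocyte list was 299.99 to 348 CPM in controls and 280.1 to 370.5 in cKO. Neutrophil genes were lower in 4 of 4 tested, with a median of -0.63, and 0 were called by edgeR, DESeq2 or limma voom (2 lower and 0 higher at an unadjusted p of 0.05). S100a8, a neutrophil alarmin, was at 0.303 to 2.46 and 0.102 to 1.42 CPM (-1.24, SE 0.51, adjusted p = 0.591 by edgeR). Csf3r, the receptor of G-CSF, is also a microglial transcript here, at 25.9 times its forebrain level in sorted microglia, and was lower by -0.47 (SE 0.12, adjusted p = 0.201).

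Border macrophages, which also express Cx3cr1, had a median of -0.01 over 12 tested genes, with 0 called by edgeR and limma voom and Stab1 called by DESeq2. Mrc1, their mannose receptor, was at 4.61 to 5.88 CPM in controls and 3.61 to 5.40 in cKO, and Cd163, a haemoglobin scavenger receptor, at 2.34 to 4.17 and 3.01 to 4.08 CPM. Stab1, a scavenger receptor of macrophages and sinus endothelium, was at 14.6 to 16.8 and 16.3 to 22.4 CPM, above all controls in 6 of 7 cKO libraries (0.34, SE 0.08, adjusted p = 0.105 by edgeR). Ms4a7, a membrane protein of border and blood-derived macrophages that resident microglia lack, was at 0.136 to 0.542 and 0.473 to 1.17 CPM, above all controls in 5 of 7 (1.14, SE 0.33, adjusted p = 0.283), and was chosen after its values were seen. Without cKO 5, the library where it was highest, Ms4a7 failed the low-count filter. In the sorted libraries Ms4a7 had 1 UMI in control and 35 in cKO.

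Several plaque-related transcripts made by neurons and astrocytes had overlapping groups. App was at 1779 to 1852 CPM in controls and 1774 to 1839 in cKO (interval -0.09 to 0.05) and Thy1 at 927 to 1088 and 972 to 1283 CPM (-0.04 to 0.20). Reads of the human transgenes may align in part to the mouse App and Thy1 genes, so these values do not measure transgene expression alone. Apoe, the lipid carrier made by astrocytes and reactive microglia, was at 1291 to 1602 and 1186 to 2101 CPM (-0.19 to 0.28), and Clu, the chaperone clusterin, at 803 to 870.2 and 774 to 907 CPM (-0.09 to 0.07). The groups overlapped in all 4. Of 23 genes of APP processing and amyloid clearance 0 were called by edgeR or DESeq2 and 1 by limma voom, 2 were lower and 0 higher at an unadjusted p of 0.05, and the median was -0.04. Genes of dystrophic neurites had a median of 0.00 over 16 tested, with 0 called by the 3 tools and 0 lower and 1 higher at an unadjusted p of 0.05. The astrocytic or shared plaque-induced list, chosen in other work, had 2 fallen genes of 21, both microglia-rich. In that list 16 of 21 were lower, with a median of -0.09, and 8 were lower and 1 higher at an unadjusted p of 0.05 (38.1% lower, against 4.19% of all genes tested). DESeq2 called 3 lower and limma voom 4. Ctsd, 1 of the 2, was at 269.9 to 382 and 228 to 252 CPM, without overlap. Its log2 change was -0.36 (SE 0.06, adjusted p = 0.00614 by edgeR), and with GC and length offsets it was -0.42 (adjusted p = 0.139).

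Immune signals shared by many cell types showed no called gene by edgeR. Type I interferon response genes were higher in 17 of 23 tested, with a median of 0.06 and 0 lower and 1 higher at an unadjusted p of 0.05. Class I antigen presentation genes had a median of 0.09 over 15 and class II genes -0.15 over 7, with 0 and 1 lower and 2 and 0 higher at an unadjusted p of 0.05. By edgeR, DESeq2 and limma voom 0 genes of these 3 lists were called. Cd74, the class II invariant chain, was at 8.71 to 16.03 and 7.70 to 11.1 CPM (-0.39, SE 0.13, adjusted p = 0.439 by edgeR). Ccl3, a chemokine of activated microglia, was at 1.58 to 2.51 and 0.305 to 1.87 CPM (-1.18, SE 0.28, adjusted p = 0.0836 by edgeR). DESeq2 (adjusted p = 0.0162) and limma voom (0.00354) called it, as did edgeR without cKO 5 (0.00466). The neuronal and glial ligands of microglial receptors were close between groups. Cx3cl1, the fractalkine that binds CX3CR1, was at 579 to 721 and 587 to 755 CPM, and Il34, the ligand of the Csf1 receptor made by neurons, at 42.3 to 46.8 and 40.9 to 51.8 CPM, with intervals of -0.10 to 0.21 and -0.10 to 0.15.

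Autophagy genes were measured over all cells of the forebrain. Of 23 genes of the autophagy machinery 0 were called by edgeR, DESeq2 or limma voom, none had an unadjusted p under 0.05, and the median was 0.01. Map1lc3b, an LC3 gene, was at 215 to 244 and 205 to 236 CPM (-0.13 to 0.05) and Sqstm1, the p62 receptor that accumulates as protein when autophagy fails, at 429 to 464 and 431 to 541 CPM (-0.06 to 0.14). The lysosome list had 6 fallen genes of 39 and a median of -0.07, and Ctss, Laptm5, Man2b1, Grn and Ctsd were among the 6. The sorted over forebrain ratios of these 5 ran from 8.58 for Man2b1, a mannosidase, to 67.6 for Ctss, the protease cathepsin S. Grn, which encodes progranulin, was at 69.8 to 84.3 and 58.0 to 65.6 CPM (-0.30, SE 0.05), the smallest change among the fallen genes. Lists of metabolism and protein quality gave 0 called genes by edgeR, DESeq2 and limma voom. Over 111 metabolic genes, 0 were lower or higher at an unadjusted p of 0.05, with a median of 0.01, and cholesterol synthesis, nuclear oxidative phosphorylation, ribosomal and proteasome lists had medians of 0.02, 0.02, 0.00 and 0.02. The 12 mitochondrially encoded genes tested were lower in 12 of 12, with a median of -0.10 that moved to 0.01 without control 5 and cKO 5. Stress lists had a median of -0.03 over 51 genes, with 2 lower and 1 higher at an unadjusted p of 0.05.

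Transcripts held in the nucleus were higher in several cKO libraries. Of 17 such genes 13 were higher and 4 lower, with a list median of 0.14. At an unadjusted p of 0.05, 5 were higher and 1 lower, and 1, Leng8, rose, whereas DESeq2 called 3 and limma voom 1. The lower gene was Kcnq1ot1, a long noncoding RNA, with a log2 change of -0.31 (adjusted p = 0.503 by edgeR), and -0.03 with GC and length offsets. Snhg11, a neuronal long noncoding RNA, was at 713 to 871 CPM in controls (median 786) and 793 to 1154 in cKO (median 961), and Meg3, an imprinted noncoding RNA, at 1187 to 1361 and 1242 to 1875 CPM. In both 6 of 7 cKO libraries were above all controls, with log2 changes of 0.30 (SE 0.08, adjusted p = 0.163 by edgeR) and 0.28 (SE 0.08, adjusted p = 0.364). Their levels in sorted control microglia were 0.000277 and 0.000436 times those in forebrain. The mean log2 level of the list was 6.74 to 6.88 in controls and was highest in cKO 7 (7.10) and cKO 6 (7.05), whereas cKO 1 (6.71) was below all controls. The median was 0.17 without control 5 and cKO 5 and 0.18 with GC and length offsets. Changes over all genes followed GC content, with a Spearman correlation of 0.36 across 16939 genes, which are not independent replicates, and -0.04 after the offsets. The part of nuclear RNA recovery in this list was not tested.

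The genes just short of the threshold, with no overlap between groups and an adjusted p from 0.05 to 0.2 in edgeR, were 6. Tnfsf13b (the B cell survival factor BAFF), Olfml3 (a microglial secreted protein), Tgfbr1 (the TGF-beta receptor that maintains microglial identity) and Ctsc (the protease cathepsin C) were lower, by log2 changes of -0.78 (SE 0.18), -0.34 (SE 0.08), -0.36 (SE 0.08) and -0.33 (SE 0.08). All 4 were microglia-rich, at 12.3 to 65.0 times. A830036E02Rik, an antisense noncoding gene whose reads cannot be told from those of its overlapping partner, and Cox17, a copper chaperone of cytochrome oxidase, were higher, at 27.7 to 30.9 against 32.0 to 40.6 CPM and 4.07 to 5.67 against 5.89 to 7.30 CPM.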

How the data were processed

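For the bulk libraries the authors deposited raw gene counts. The submitters' processing notes name HISAT2 2.0.5, featureCounts 1.5.0-p3 and the mm10 build, and the labels describe selection of poly-A RNA. Neither the annotation release nor the strand setting is stated (not given in the sources used here). The deposited single-cell UMI counts came from Cell Ranger, per the same notes. UMIs were summed over cells with 500 or more genes and no more than 10% of UMIs from mitochondrial genes. This left 6243 of 6633 control and 8874 of 9840 cKO barcodes, with 22 barcodes in both libraries, and doublets were not removed.

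Bulk counts were filtered (filterByExpr), TMM-scaled and tested in edgeR 4.0.16 (R 4.3.3) with the robust quasi-likelihood F-test, two-sided, with Benjamini-Hochberg adjustment over 16956 genes and 95% intervals from F. The fit used the 13 bulk libraries with genotype as the 1 term. Totals of 16658707 to 22355512 counts and a biological coefficient of variation of 10.0% set the precision. On simulated data for 7 against 6 libraries over 16769 genes, 96% of 2-fold, 90% of 0.5-fold, 74% of 1.5-fold and 82% of 0.667-fold changes were called, with 13 false among 184 calls. In the same order, the 95% interval held the true change for 98%, 90%, 94% and 88% of 50 genes each, so for falls it held less often than 95%. Changes were placed only in genes at a mean of 1 CPM or more, and counts were drawn independently, without effects of dissection or GC content. The rates therefore do not extend to genes at lower levels or to libraries that differ in these ways. For every pair of libraries within a group, the chi-square divided by its degrees of freedom was 2.75 or more, so no pair differed by counting noise alone. Separate preparations from 1 animal could also pass this check. List levels are means of log2(CPM + 0.5).

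The comparison, the 55 gene lists and the tests were chosen with earlier results of these data known. Named were all risen genes, the 15 lowest log2 changes among fallen genes where a result turned on them, called genes that were not microglia-rich, called and highest-CPM members of lists, up to 10 genes per direction without overlap at adjusted p 0.05 to 0.2, and Atg7, Cx3cr1, App, Thy1, Gfap, Serpina3n, C4b, Apoe and Clu. Outside this rule, and chosen after their values were seen, are Ccl3, S100a8, Mrc1, Cd163, Ccr2, Ly6c2, Cd3e, Ms4a7, Fbln1, Col3a1, Pclo, Grin2b and the indicators Gh, Gabra6, Tph2, Xist and Ddx3y. Lists that the text does not describe one by one are summed in the classes given. Alternatives were DESeq2 1.42.0, limma 3.58.1 voom with quality weights, 1 surrogate variable (sva 3.50.0), other scaling and filters, GC and length offsets, a replicate block, left-out libraries, and other class limits. Gene positions are from GENCODE M21. Some genes that these rules name are not reported here.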

Additional observations from a re-analysis of the deposited data

Results flagged for a closer look

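Among 146 groups of libraries examined for a value far from the rest, 10 held one, and chance alone gives about 1 in 20. Control 5 was above the other 5 controls for 5 microglial genes: Tgfbr1 at 49.6 CPM, Plek at 36.3, Trem2 at 36.6, Laptm5 at 80.9 and Gpr34 at 21.7 CPM, and also for Lag3 at 11.5 CPM. Control 4 was below the others for P2ry12, at 31.9 CPM. In cKO libraries, cKO 5 was above the others for Apoe at 2101 CPM and for C1qc at 39.8 CPM, and cKO 2 was below the others for Itgb5 at 46.0 CPM. Trem2, Laptm5 and Gpr34 fell with control 5 left out as well.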

How the results depend on the processing

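With other tools and settings, the number of genes that rose moved from 9 to 22 with DESeq2 and to 23 without a low-count filter, whereas 61 and 59 fell. Leaving out 1 library at a time gave 30 to 50 fallen and 3 to 23 risen genes. Fits chosen after seeing the data left out libraries that stood apart. Without control 3 and control 4, 24 genes fell and 1 rose, and without the 4 libraries with Gabra6 over 1 CPM, 17 fell and 0 rose, from 9 libraries. Without control 5 and cKO 5 the counts were 39 and 7, and without the 3 libraries with Tph2 under 10 CPM 39 and 6. Each of these fits also held fewer libraries, and the causes of the lower counts were not tested.

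With a replicate block 21 genes fell and 1 rose, and 37 and 8 with GC and length offsets as well. Deviations of same-numbered libraries correlated at 0.224, 0.0186, -0.142, 0.328, -0.546 and 0.238, not all above 0.1, and no control correlated best with the cKO library of its own number. That check covered identical numbers only and cannot decide on handling shared by neighbouring numbers. The main design has no block because the labels give replicate numbers with no stated pairing. The second principal component was nevertheless positive in controls 1 and 2 and cKO 1, 2 and 3 and negative in the others, and whether numbers mark a shared handling is not in the labels.

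Class limits moved small counts. With limits of 2 times and its inverse, 1 risen gene and 1 fallen gene were between and 2 fallen genes were microglia-poor. With limits of 8 times and its inverse, or with the sorted cKO library as the reference, 0 fallen genes were microglia-poor. Lilr4b became microglia-rich with limits of 2 times and its inverse and with the sorted cKO library. Mmp12 became between with the sorted cKO library. All 56 called genes kept their sign in each of the 27 alternatives that could test them, and 14 kept the call in each. Clec3b lost its call without the Tph2-low (adjusted p = 0.102 by edgeR) and Gabra6-high (0.0973) libraries. Depth limits Mmp12, Lilr4b and B430306N03Rik, which lie near or under 1 CPM in controls.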
